A study of Ziziphus jujuba var. spinosa with 24 samples.

Results

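GAPDH (LOC107418185), TUA (LOC107435591), ACT1 (LOC107413530) and EF1-alpha (LOC107422504) are the genes under study, 4 of the 32527 genes counted in leaves of sour jujube, Ziziphus jujuba var. spinosa. They were picked by identifier. A reference table of the ASM3175591v1 assembly pairs each identifier with that name and lists each as protein coding. The question was how constant their transcript levels were when the plants were droughted and when the genome was doubled. RNA was sequenced from 24 libraries, 3 in each of 8 groups. The groups were autotetraploid plants and diploid wild-type plants, each as untreated control and after 6 h, 12 h and 48 h of drought. All plants were seedlings raised side by side in tissue culture for 30 days, rooted for 45 days and moved to nutrient solution. The daily cycle was 16 h of light and 8 h of dark. Drought was imposed with polyethylene glycol that was raised in steps to a final 20%. The labels do not say how many autotetraploid lines were used, which polyethylene glycol step a time belongs to, or at what hour of the light cycle control and droughted leaves were cut. Drought and time of day therefore cannot be told apart in what follows. They also number the libraries of a group without saying that each came from a separate plant, so the p-values below rest on library-to-library spread that may be technical.

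Genes of this kind serve as internal standards in quantitative RT-PCR. A target's signal is divided by that of a reference gene, on the premise that the reference stays level between the samples compared. GAPDH encodes glyceraldehyde-3-phosphate dehydrogenase, an enzyme of glycolysis. TUA encodes alpha-tubulin, which pairs with beta-tubulin to build microtubules. ACT1 encodes actin, the subunit of microfilaments. EF1-alpha encodes the elongation factor that carries aminoacyl-tRNA to the ribosome. All take part in processes that every living cell runs, and all can change with growth, metabolism or stress.

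Library totals lay between 30750412 and 50404402 counts, with a median of 37199250. Together the 4 genes took between 0.256% and 0.445% of a library's counts. The smallest count of any of them in any library was 5564, for ACT1, so counting error alone was at most 1.34% of a value. Both rubisco activase genes that carry a name, typical of green leaf tissue, were abundant in all 24 libraries (RCA1 at 128 CPM or more, RCA2 at 1603 CPM or more). The libraries farthest from the other 2 of their group were diploid control replicate 3 and autotetraploid 12 h replicate 3, with median absolute log2 differences of 0.218 and 0.214 over 16392 genes, against 0.113 to 0.180 in the other 22. Log2 fold changes against control that moved by over 0.1 without either of them are given with and without it. All 4 genes passed the filter on low counts that left 25829 genes.

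Levels are given as CPM, a gene's share of the library's counts after scaling by TMM, the trimmed mean of M values, which sets the bulk of genes equal between libraries. In bulk leaf RNA, fewer cells of a type and less transcript per cell cannot be told apart. GAPDH had the highest level at 1758 CPM on average, and 0.101% of the genes tested exceeded it. TUA averaged 762 CPM, EF1-alpha 669.6 CPM and ACT1 213 CPM. Per transcript length the order was the same in autotetraploid control leaves. There GAPDH stood at 1291 ± 20.9 FPKM (fragment counts adjusted for the length of the transcript and the depth of the library). TUA stood at 557 ± 78.2 FPKM, EF1-alpha at 364 ± 10.9 FPKM and ACT1 at 164 ± 17.5 FPKM (SD, n = 3). At 48 h TUA lay below EF1-alpha, at 268 ± 32.3 against 328 ± 22.2 FPKM in autotetraploids and 322 ± 53.8 against 329 ± 10.9 FPKM in diploids.

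**Figure D1:**
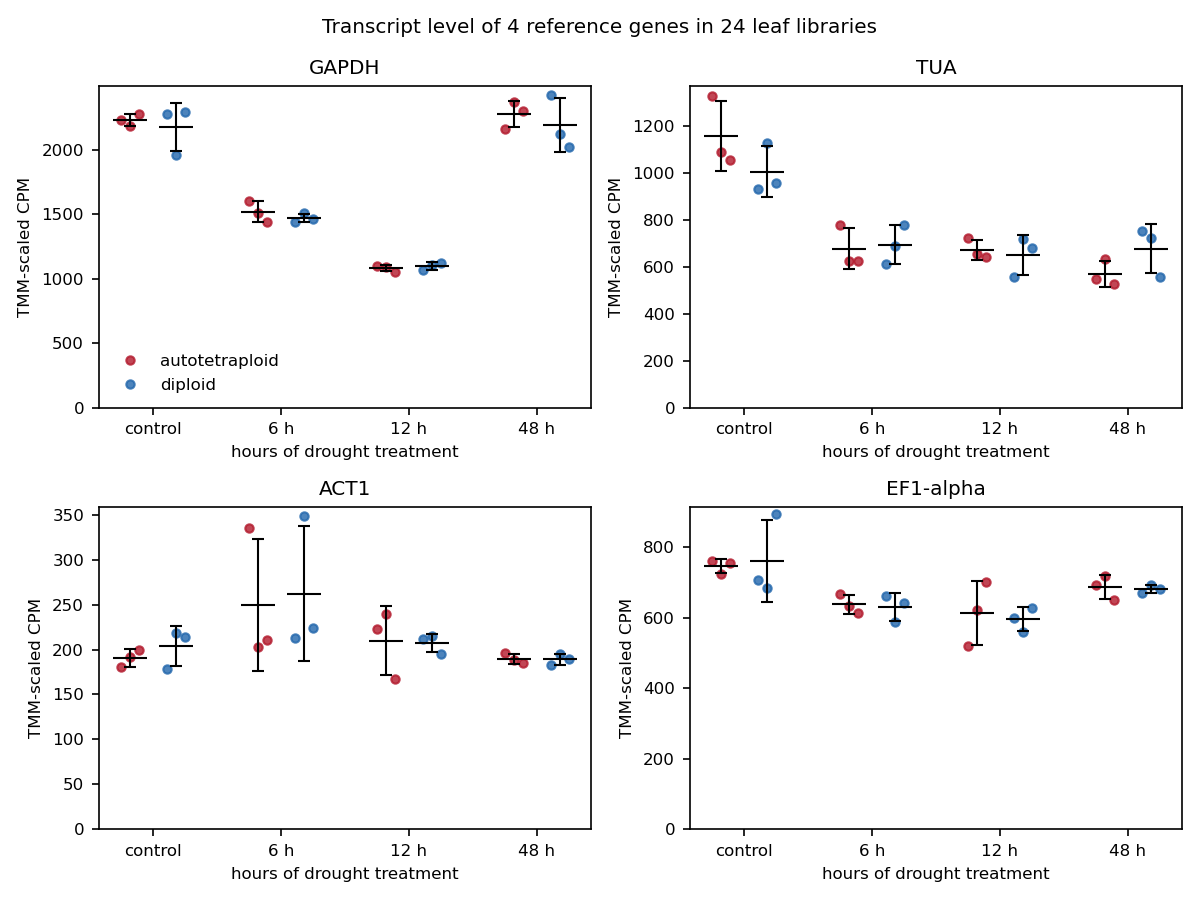
Level of GAPDH, TUA, ACT1 and EF1-alpha in TMM-scaled CPM (vertical axes, each from 0) against treatment, with 1 point per library, autotetraploid left of diploid, and bars for the mean and SD of 3 libraries. GAPDH dips to 1082 and 1101 CPM at 12 h and lies at 2280 and 2193 CPM at 48 h, TUA stays below its controls at all 3 times, ACT1 has 1 high library per ploidy at 6 h, and EF1-alpha spans the least.

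GAPDH fell under drought at 6 h and further at 12 h, to about the same level in both ploidies, and at 48 h it did not differ from control by test. In autotetraploid leaves its 3 libraries held 2230.1, 2184 and 2282 CPM in control, 1607, 1514 and 1442 CPM at 6 h, 1099, 1092 and 1054 CPM at 12 h, and 2165.96, 2372 and 2301 CPM at 48 h. In diploid leaves they held 2283, 1964 and 2294 CPM in control, 1442, 1508 and 1465 CPM at 6 h, 1068, 1109 and 1126 CPM at 12 h, and 2429, 2123 and 2026 CPM at 48 h. Every library at 6 h lay below every control library of its ploidy, every library at 12 h lay below every library at 6 h, and the 48 h libraries overlapped the controls.

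At 12 h the level was 1082 ± 24.1 CPM in droughted autotetraploid leaves, against 2232 ± 49.2 CPM in their controls (SD, n = 3 each). The log2 fold change was −1.05 ± 0.075 (SE), a loss of 51.5%, with an adjusted p of 4.4e-09 (edgeR's quasi-likelihood test, Benjamini-Hochberg adjusted over 25829 genes). In diploid leaves the 12 h level was 1101 ± 29.8 CPM under drought and 2180.5 ± 187 CPM in control, a log2 fold change of −0.99 ± 0.075 (edgeR adjusted p = 9.6e-09). At 6 h the log2 fold changes were −0.55 in autotetraploids and −0.57 in diploids, both with an edgeR adjusted p of 2.1e-05. Both 95% intervals at 12 h ended at −0.83 or lower, that is, at 0.563 of the control level or less.

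GAPDH then rose again. From 12 h to 48 h the log2 fold change was 1.08 ± 0.075 in autotetraploids and 0.99 ± 0.075 in diploids (edgeR adjusted p = 2.6e-09 and 8.8e-09), while from 6 h to 12 h it was −0.49 and −0.42 (adjusted p = 0.00021 and 0.00094). At 48 h the difference from control was 0.03 in autotetraploids, with a 95% interval of −0.13 to 0.19, and 0.01 in diploids, with an interval of −0.15 to 0.16. Within a group GAPDH was the steadiest of the 4: the pooled within-group SD of its log2 CPM was 0.0789, and 15.0% of 2215 abundant genes (a mean of at least 100 CPM) had a smaller one.

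TUA fell at all 3 times in both ploidies and, unlike GAPDH, stood below its controls at 48 h as well. In autotetraploid leaves its levels were 1329, 1088 and 1056 CPM in control, 777, 626 and 626 CPM at 6 h, 721, 653 and 639 CPM at 12 h, and 549, 632 and 525 CPM at 48 h. In diploid leaves they were 933, 1128 and 955 CPM in control, 612, 690.3 and 777 CPM at 6 h, 555, 716 and 679 CPM at 12 h, and 750.3, 721 and 556 CPM at 48 h. All 9 droughted libraries of each ploidy lay below that ploidy's lowest control library.

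The largest drop was in autotetraploid leaves at 48 h, with 569 ± 55.9 CPM under drought and 1158 ± 149 CPM in control (SD, n = 3 each), a log2 fold change of −1.03 ± 0.14 (SE; edgeR adjusted p = 0.00045). At 6 h and 12 h the log2 fold changes there were −0.78 and −0.79 (edgeR adjusted p = 4e-04 and 0.00026). In diploid leaves they were −0.54, −0.63 and −0.57 at 6 h, 12 h and 48 h, with adjusted p of 0.0089, 0.0019 and 0.04. The diploid call at 48 h is the weakest of these: leaving out any 1 of 5 of the 6 libraries compared (control replicates 2 and 3 and all 3 at 48 h) ended it, with adjusted p between 0.058 and 0.18 and log2 fold changes between −0.65 and −0.45. No step between drought times was called for TUA, with log2 fold changes from −0.24 to 0.06, but the autotetraploid step from 12 h to 48 h, −0.24, was −0.45 and passed with library totals alone (adjusted p = 0.023) and with limma on FPKM (adjusted p = 0.02).

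ACT1 passed no drought test, and its intervals were the widest of the 4. In autotetraploid leaves it had 180.3, 192 and 199.9 CPM in control, 335, 203 and 211 CPM at 6 h, 223, 240.2 and 167 CPM at 12 h, and 196, 188 and 185 CPM at 48 h. In diploid leaves it had 178, 219 and 214 CPM in control, 213, 349 and 224 CPM at 6 h, 212, 215 and 196 CPM at 12 h, and 183, 195 and 189.6 CPM at 48 h. In each ploidy a single 6 h library stood far above the other 22 (replicate 1 of the autotetraploid and replicate 2 of the diploid), and the lowest value came from autotetraploid 12 h replicate 3, a library that stood apart.

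At 6 h ACT1 averaged 249.6 ± 74.0 CPM under drought and 191 ± 9.88 CPM in control in autotetraploids, a log2 fold change of 0.39 with a 95% interval of 0.0020 to 0.78 (edgeR adjusted p = 0.14). In diploids it averaged 262 ± 75.4 CPM under drought and 204 ± 22.4 CPM in control, a log2 fold change of 0.37 with an interval of −0.02 to 0.75 (adjusted p = 0.18). Without the high library these log2 fold changes were 0.13 and 0.11. At 12 h and 48 h they lay between −0.10 and 0.14 with all libraries. The 12 h value in autotetraploids, 0.14, was 0.28 without replicate 3 of that group (adjusted p = 0.32). The lack of a call does not show a constant level: in only 3 of the 6 drought comparisons did the 95% interval of ACT1 stay within 0.5 of 0.

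EF1-alpha stood lower under drought at 6 h and 12 h by a small amount that passed the test at 12 h. In autotetraploid leaves its levels were 761, 723 and 756 CPM in control, 668, 633 and 615 CPM at 6 h, 520.1, 622 and 701 CPM at 12 h, and 692, 719 and 651 CPM at 48 h. In diploid leaves they were 707, 683 and 895 CPM in control, 663, 587 and 641 CPM at 6 h, 600.1, 559.8 and 627 CPM at 12 h, and 669.6, 693 and 682 CPM at 48 h. In both ploidies the 6 h and 12 h libraries lay below all controls. At 48 h the autotetraploid libraries also did, the highest at 719 CPM and the lowest control at 723 CPM, whereas the diploid libraries overlapped theirs.

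At 12 h EF1-alpha averaged 615 ± 90.8 CPM under drought and 747 ± 20.5 CPM in control in autotetraploids, a log2 fold change of −0.28 ± 0.10 (edgeR adjusted p = 0.043). In diploids it averaged 596 ± 33.8 CPM under drought and 762 ± 116 CPM in control, a log2 fold change of −0.35 ± 0.10 (adjusted p = 0.012). Both calls are close to the threshold. Without autotetraploid 12 h replicate 3, which stood apart, the autotetraploid value was −0.39 (adjusted p = 0.0092), without replicate 1 of that group it was −0.17 (adjusted p = 0.22), and 20 of the 24 fits that left out 1 library lost the call. The diploid call was lost without diploid control replicate 3, the other library that stood apart, at −0.21 (adjusted p = 0.10), and without diploid 12 h replicate 2, at −0.31 (adjusted p = 0.057). When libraries were scaled by their totals alone, the values at 12 h were −0.13 in autotetraploids and −0.23 in diploids (adjusted p = 0.37 and 0.11), because that scaling moved log2 folds of the 4 genes by 0.15 and 0.13 at 12 h.

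The remaining EF1-alpha comparisons did not pass. At 6 h the log2 fold change was −0.23 in autotetraploids and −0.27 in diploids (edgeR adjusted p = 0.12 and 0.062), and at 48 h it was −0.12 and −0.16 (adjusted p = 0.49 and 0.42). Without diploid control replicate 3 the diploid values were −0.14 at 6 h and −0.028 at 48 h (adjusted p = 0.33 and 0.94). Of its 6 drought intervals, 5 lay within 0.5 of 0 on the log2 scale and the diploid one at 12 h reached −0.57. For ACT1 this held in 3 of 6 comparisons, for GAPDH in the 2 at 48 h, and for TUA in none.

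**Figure D2:**
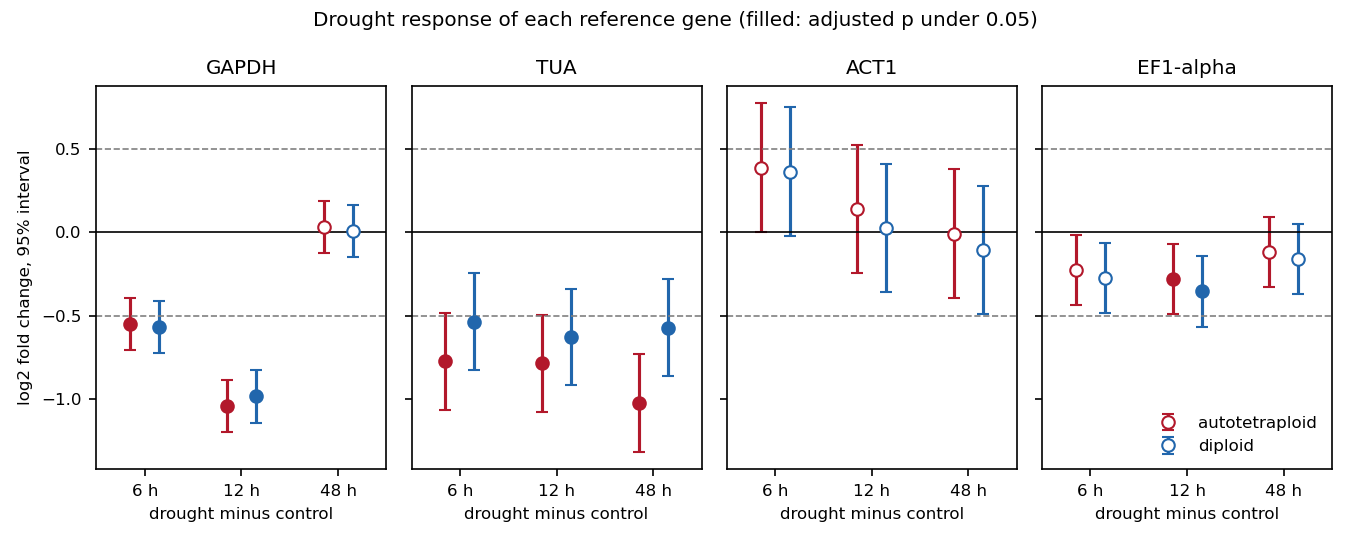
Log2 fold change of each gene under drought minus control, with 95% intervals, at 6 h, 12 h and 48 h in autotetraploid and diploid leaves; filled symbols passed edgeR's test at an adjusted p under 0.05 and dashed lines mark 0.5 on the log2 scale. GAPDH is filled at 6 h and 12 h and sits at 0.03 and 0.01 at 48 h, TUA is filled throughout, EF1-alpha only at 12 h and ACT1 nowhere.

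These counts have to be read against how much of the transcriptome moved. At 6 h, 2 of the 4 genes passed in autotetraploids, where 25.1% of all genes tested passed, and 2 of 4 in diploids, where 21.3% did. At 12 h, 3 of 4 passed in each ploidy, beside 29.6% of genes in autotetraploids and 30.2% in diploids. At 48 h TUA alone passed, beside 13.5% in autotetraploids and 2.01% in diploids. Abundant genes were called more often than others: among the 2215 of at least 100 CPM, 43.4% passed at 6 h and 50.6% at 12 h in autotetraploids, and 38.1% and 51.5% in diploids. At 48 h 21.0% of them passed in autotetraploids and 5.15% in diploids. All 3 times of a ploidy were set against the same 3 control libraries. GAPDH was the only one of the 4 called between drought times, beside 8.05% of genes from 6 h to 12 h and 30.4% from 12 h to 48 h in autotetraploids, and 8.06% and 26.2% in diploids. Among abundant genes these shares were 21.0% and 52.3% in autotetraploids and 22.1% and 48.2% in diploids.

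A single test of any difference among the 8 groups gave edgeR adjusted p of 4.6e-10 for GAPDH, 4e-05 for TUA, 0.041 for EF1-alpha and 0.18 for ACT1. The first 3 passed, beside 47.3% of all genes. The 6 drought comparisons taken at once gave 2.3e-10, 2.2e-05, 0.027 and 0.13 in the same order of genes, beside 47.8% of all genes. EF1-alpha's joint call is not firm: 19 of 24 fits without 1 library lost it, with adjusted p up to 0.089.

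Doubling of the genome went with no called difference in any of the 4 genes. Averaged over the 4 treatments, the autotetraploid minus diploid log2 difference was 0.03 for GAPDH with a 95% interval of −0.05 to 0.11, −0.01 for TUA with −0.15 to 0.14, −0.04 for ACT1 with −0.23 to 0.16, and 0.01 for EF1-alpha with −0.09 to 0.12. These intervals bound the average ploidy difference at 0.23 on the log2 scale or less for each gene. They do not bound the difference within a single treatment, where intervals were wider. Because libraries were made from equal amounts of RNA and levels are shares of it, a change of all transcripts per cell with ploidy would not appear here.

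Within a single treatment the widest ploidy differences were those of TUA. It averaged 1158 ± 149 CPM in autotetraploid and 1005 ± 107 CPM in diploid controls (log2 difference 0.20), and 569 ± 55.9 CPM in autotetraploids and 676 ± 104 CPM in diploids at 48 h (log2 difference −0.25). Neither passed, with edgeR adjusted p of 0.74 and 0.68, and the libraries of both ploidies overlapped in each. The 95% intervals of these differences were −0.09 to 0.49 in controls and −0.54 to 0.04 at 48 h. Being opposite in sign, they offset each other in TUA's average. The autotetraploid minus diploid difference in the log2 drought response of TUA at 48 h was −0.45, with a 95% interval of −0.86 to −0.04 and an adjusted p of 0.76 (unadjusted 0.0321). For the other 3 genes the differences between ploidies in the drought response lay between −0.06 and 0.11.

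Ploidy calls were rare across the transcriptome, so the absence of a call among 4 genes says little. They made up 0% of genes in controls, 0% at 6 h, 0.0194% at 12 h, 0.139% at 48 h and 0.403% in the average, and 0% for the interaction at each of the 3 times. Where edgeR called no gene, 2230 genes in controls and 1919 at 6 h had an unadjusted p under 0.05, as did 1650, 1211 and 1626 genes for the interactions at 6 h, 12 h and 48 h. With no difference anywhere, a share of about 0.05 of the 25829 genes tested would have such a p. These counts were not tested against that share. DESeq2 called 175 genes in controls, 115 at 6 h, and 98, 80 and 162 for the interactions, and none of the 4 genes in any of these. The 4 ploidy comparisons at once gave adjusted p of 0.99, 0.77, 1 and 1 for GAPDH, TUA, ACT1 and EF1-alpha, beside 0.0387% of genes called.

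Ratios between the genes inside a library need no scaling between libraries at all. Each of the 6 pairs was compared between a drought time and control with both ploidies stratified, by an exact two-sided permutation test in which 0.005 is the smallest possible p, and between ploidies. Of these 24 tests, 11 of the 18 on drought and 0 of the 6 on ploidy passed after Benjamini-Hochberg adjustment over all 24. The genes thus changed relative to each other under drought. No ratio differed by test between ploidies in the average over the 4 treatments. That average cannot exclude a difference within a single treatment, because differences of opposite sign offset each other in it. GAPDH gave 1.94 counts per TUA count in autotetraploid and 2.17 in diploid controls, but 4.02 and 3.26 at 48 h (geometric means, n = 3 each). Ploidy differences in the ratios within a single treatment were not tested. The 18 drought tests are not separate results, since pairs share genes and all times share the same controls. How often pairs of other abundant genes would pass was not computed.

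The pair that parted most was GAPDH and ACT1. GAPDH gave 5.21 counts for each ACT1 count in autotetraploids at 12 h, against 11.7 in their controls, and 5.31 in diploids at 12 h, against 10.7 in controls (geometric means, n = 3 each). The log2 ratio differed from control by −1.09 at 12 h and by −0.90 at 6 h (exact permutation p = 0.005 and adjusted p = 0.015 for each), and at 48 h it differed by 0.07 (exact p = 0.455). GAPDH against EF1-alpha changed in the same sense, by −0.31 at 6 h and −0.70 at 12 h (exact permutation, adjusted p = 0.024 and 0.015). TUA fell against ACT1 at every time, with log2 differences of −0.9995, −0.78 and −0.75 at 6 h, 12 h and 48 h (exact permutation, adjusted p = 0.015 each).

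The GAPDH to TUA ratio did not differ by test at 6 h, with a log2 difference of 0.10 (exact permutation p = 0.405). At 12 h the log2 difference was −0.31 (exact permutation p = 0.025). Its adjusted p of 0.05 lay on the threshold and was not counted as passed. The ratio did differ by test at 48 h. There GAPDH gave 4.02 counts per TUA count in autotetraploids, against 1.94 in controls, and 3.26 in diploids, against 2.17 in controls. The log2 difference was 0.82 (exact permutation, adjusted p = 0.015). ACT1 rose against EF1-alpha at 6 h by 0.59 (exact permutation, adjusted p = 0.015), and in both ploidies all 6 h libraries lay above all controls in that ratio. In diploids they barely did: the lowest 6 h log2 ratio was −1.635 and the highest control −1.641. The SD of this ratio at 6 h was 0.35 in autotetraploids and 0.48 in diploids (n = 3 each). TUA fell against EF1-alpha, with log2 differences of −0.41 at 6 h and −0.67 at 48 h (exact permutation, adjusted p = 0.0436 and 0.024), and the 6 h call was lost in 9 of 24 repeats that left out 1 library.

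**Figure D3:**
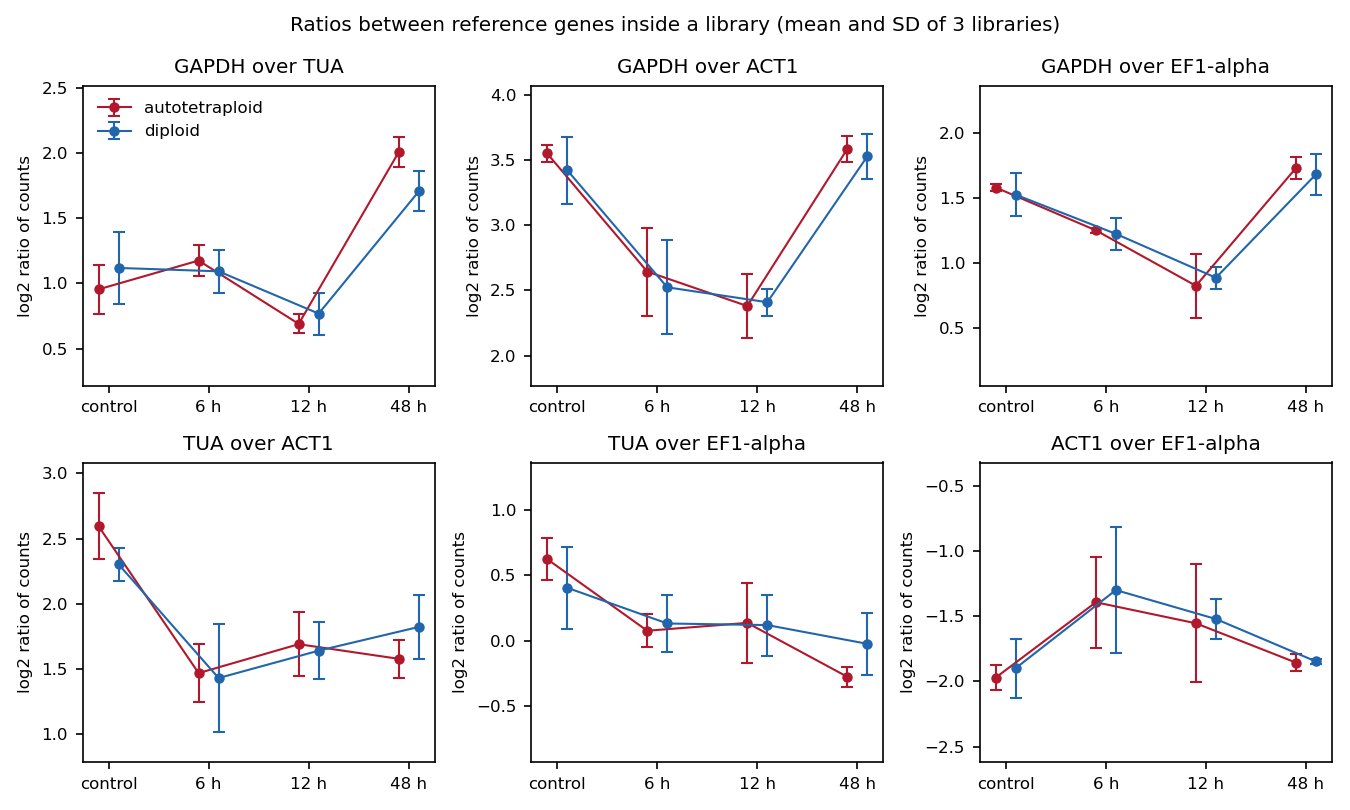
Log2 ratio of counts between each pair of the 4 genes inside a library (vertical axes, all spanning the same range) against treatment, as mean and SD of 3 libraries, autotetraploid and diploid. GAPDH over ACT1 differs from control by −0.90 at 6 h and −1.09 at 12 h and by 0.07 at 48 h. GAPDH over TUA differs by 0.10, −0.31 and 0.82 at the same times. The ploidies lie farthest apart in GAPDH over TUA at 48 h, at 2.01 in autotetraploids and 1.71 in diploids. Next is TUA over ACT1 in controls, at 2.60 and 2.30.

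The mean SD of a gene's log2 ratios to the other 3, known as geNorm's M and lower for steadier genes, ranked EF1-alpha first with 0.337, then TUA with 0.407, ACT1 with 0.452 and GAPDH with 0.458 over the 24 libraries. The pair with the smallest SD was TUA and EF1-alpha at 0.319, and that with the largest was GAPDH and ACT1 at 0.568. Inside a single treatment, with both ploidies, M was between 0.124 and 0.332 for every gene. The order of the last 2 is not firm: on FPKM values ACT1 was last with 0.509, and GAPDH had 0.471. GAPDH had an M of 0.178 at 6 h, 0.152 at 12 h and 0.150 at 48 h, where ACT1 had 0.332, 0.227 and 0.133. M compares the 4 genes with each other only, so a gene whose partners share its movement is favoured.

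Set among other genes, 2 of the 4 were less constant than most. The coefficient of variation of the 8 group means was 29.6% for GAPDH, 26.9% for TUA, 13.2% for ACT1 and 9.08% for EF1-alpha. Among the 2215 abundant genes its median was 15.5%, and 73.9% of them varied less than GAPDH, 70.8% less than TUA, 44.2% less than ACT1 and 27.0% less than EF1-alpha. The highest group mean exceeded the lowest 2.11-fold for GAPDH, 2.04-fold for TUA, 1.38-fold for ACT1 and 1.28-fold for EF1-alpha, where the median abundant gene had 1.54. The order of the 4 was the same when the other scalings, no filter on low counts or the FPKM values were used. The values were not the same: on FPKM ACT1 varied more than on CPM, and GAPDH and TUA lay closer together.

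A low variation of group means does not by itself make a level predictable in 1 sample. ACT1 had the largest pooled within-group SD of the 4, 0.233 on the log2 scale, and 79.0% of abundant genes had a smaller one. EF1-alpha had 0.121, with 41.1% of abundant genes below it, and TUA 0.172, with 62.8% below. EF1-gamma (LOC107412556), a further elongation factor subunit that the reference table names and that is sometimes used in the same way, had a coefficient of variation of 7.91% and a within-group SD of 0.0697. It rose in diploids at 12 h by 0.23 on the log2 scale (edgeR adjusted p = 0.0094), against the direction of EF1-alpha, and passed none of the other 5 drought tests.

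**Figure D4:**
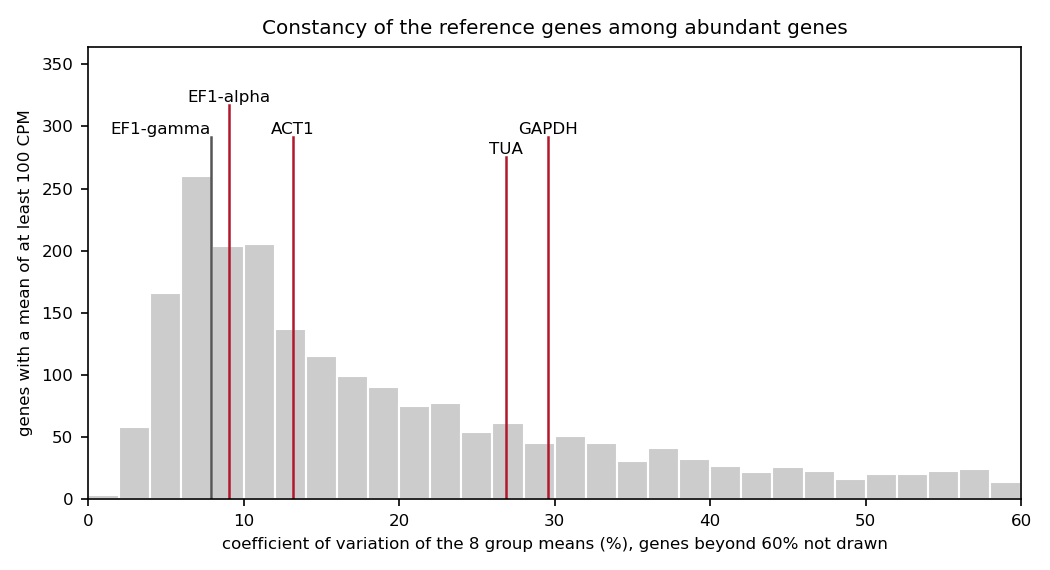
Number of abundant genes (vertical axis) by the coefficient of variation of their 8 group means in percent (horizontal axis), with lines for the 4 genes and, in grey, EF1-gamma; 151 genes beyond 60% are not drawn. EF1-alpha at 9.08% and ACT1 at 13.2% lie left of the median of 15.5%, TUA at 26.9% and GAPDH at 29.6% right of it.

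When 1 gene is the only scale of a library, as in a relative measurement, every other gene's log2 fold is shifted by the reverse of that gene's own. The size of this was computed, a choice made after the data were seen, by using each gene's counts as the library scale. The calls below therefore restate the folds already given, as numbers of genes, and are no further test of the 4 genes. With GAPDH as the scale the median shift of all genes at 12 h was 1.04 in autotetraploids and 0.98 in diploids, the reverse of its log2 fold changes of −1.05 and −0.99.

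At 12 h 17540 genes were then called in autotetraploids, 95.2% of them higher under drought, and 16853 in diploids, 95.4% of them higher. By TMM 7647 were called in autotetraploids, 47.2% of them higher, and 7794 in diploids, 48.5% of them higher. That balance depends on TMM, which centres the bulk of genes: with library totals alone 5659 of 8647 calls were higher in autotetraploids and 5333 of 8314 in diploids, and with limma on log2(FPKM + 1) 5884 of 8623 and 5247 of 8055. Of the genes called by TMM, 1273 in autotetraploids and 1294 in diploids were called in the opposite direction with GAPDH as the scale. At 48 h GAPDH as the scale gave 2565 calls in autotetraploids, 31.7% of them higher, and 214 in diploids, 41.6% of them higher, against 3490 (45.0% higher) and 520 (54.8% higher) by TMM.

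TUA as the scale shifted the median gene by 1.02 at 48 h in autotetraploids, where 98.0% of 16617 calls were higher, and by 0.58 in diploids, where 99.0% of 10775 were. EF1-alpha shifted it by 0.30 at 12 h in autotetraploids, with 77.3% of 8985 calls higher, and by 0.34 in diploids, with 81.1% of 9294 higher. ACT1 gave fewer calls than TMM in all 6 drought comparisons. At 6 h these were 4195 in autotetraploids, 20.8% of them higher, and 2988 in diploids, 19.7% of them higher, and at 12 h 3812, 28.6% of them higher, and 3410, 37.9% of them higher. At 48 h they were 965 in autotetraploids, 25.7% of them higher, and 7 in diploids, 57.1% of them higher. In autotetraploids at 48 h ACT1's own log2 fold was −0.0062, and TMM gave 3490 calls, 45.0% of them higher. The cause of this difference in calls was not tested. The geometric mean of the 4 genes shifted the median gene by 0.50 and 0.48 at 12 h in autotetraploids and diploids.

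**Figure D5:**
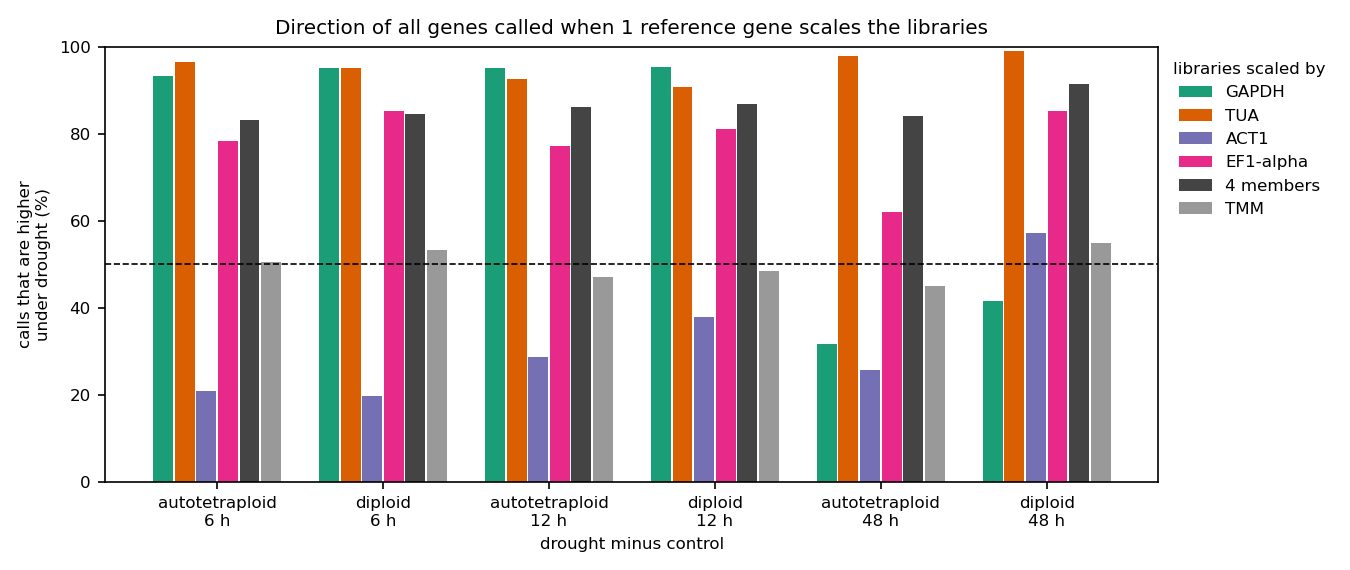
Share of all called genes that are higher under drought (vertical axis, percent) in the 6 drought comparisons when libraries are scaled by 1 of the 4 genes, by the geometric mean of the 4, or by TMM; the dashed line marks equal shares. Each gene's bars come from the same counts as its own fold and are no further test of it. TMM bars lie between 45.0% and 54.8%, GAPDH bars reach 95.4% at 12 h, TUA bars reach 99.0% at 48 h, and ACT1 bars fall to 19.7% at 6 h.

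ACT1 differed from the other 3 in how its deposited values were made up. The transcript length implied by its counts and FPKM values ranged from 996 to 1237 bases between libraries, a factor of 1.24, while for the other 3 it varied by a factor of 1.04 that was shared within a library. Of 8195 genes compared, 94.5% had a smaller spread of implied length than ACT1. The reference table lists 8 transcripts for ACT1, 1 for GAPDH and 2 each for TUA and EF1-alpha. That table holds 19767 of the 29293 LOC identifiers counted, so it may differ from the annotation behind the counts. At 6 h the implied length was 1013 ± 5.42 bases in autotetraploids and 1004 ± 7.09 bases in diploids, against 1149 ± 105 and 1098 ± 105 bases in their controls (SD, n = 3 each), so ACT1 in FPKM stood higher at 6 h than in counts. On log2(FPKM + 1) with limma its 6 h log2 differences were 0.54 and 0.47 in autotetraploids and diploids, and they did not pass (adjusted p = 0.078 and 0.13). None of the 4 genes overlaps another gene in the reference table. How reads shared with close relatives of these genes were counted is not given in the sources used here.

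Among 16382 genes with a mean of at least 5 CPM, the profile over 24 libraries most like that of GAPDH was LOC107427785, with a Pearson r of 0.991, whose group means ran from 3.26 to 21.4 CPM. The nearest to TUA was LOC107409465 (r = 0.968), to EF1-alpha LOC107406738 (r = 0.927) and to ACT1 LOC107406419 (r = 0.768). These are descriptions over libraries that share treatments and scaling factors. The closest match of ACT1 was the loosest of the 4.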

How the data were processed

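Gene counts of 24 leaf libraries were deposited by the authors as whole numbers per gene and library, not normalized, per the file headers. FPKM values were also deposited by the authors, 1 table for each group. HISAT2 and StringTie are the tools named in the submitters' processing notes; versions, genome build, annotation and use of strand are not given in the sources used here. Every column matched 1 library by name. Of 32527 genes, 3073 had no count.

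Tests on counts used edgeR 4.0.16 in R 4.3.3: filterByExpr by group (25829 genes left), TMM scaling (factors 0.934 to 1.11), 1 mean per group over all 24 libraries, robust quasi-likelihood fit with 16 residual degrees of freedom, and Benjamini-Hochberg adjustment over all genes tested, with calls at an adjusted p under 0.05. Standard errors were the absolute log2 fold change divided by the square root of F, and 95% intervals used the total degrees of freedom. Alternatives were other scalings, no filter, DESeq2 1.42.0, limma 3.58.1 on log2(FPKM + 1) and log2(FPKM + 0.1) for genes of at least 1 FPKM on average, separate fits, a replicate block, and leaving out each library. The model and the permutation test were tested on simulated data.

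The rule for the 4 members uses identifiers, but the members, lists and tests were proposed with earlier results of these data known. Genes named were the 4 members, EF1-gamma, and the closest profile to each member. A list of gene family relatives was not analysed here, since the tables used give no descriptions or protein sequences; for the same reason no sequence is shown.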

Additional observations from a re-analysis of the deposited data

How the results depend on the processing

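Calls for GAPDH at 6 h and 12 h and its steps, and for TUA in autotetraploids at each time and in diploids at 6 h and 12 h, held under all 9 other settings and without any 1 of the 24 libraries. No called value changed sign. Same-numbered libraries were no more alike than others. Over 84 same-numbered pairs the median correlation of deviations from group means was −0.0098, and 1 exceeded 0.1. Over 168 different-numbered pairs the median was 0.0015, and 6 exceeded 0.1. The labels do not say whether same-numbered libraries were handled together. With the replicate block TUA at 48 h in diploids was −0.58 (edgeR adjusted p = 0.052), and the block changed no other call; fits of the compared libraries alone gave −0.59 for TUA there, which also lost the call (adjusted p = 0.19).

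EF1-alpha is where settings decide. At 6 h in diploids it passed with RLE size factors (−0.29), upper quartile scaling (−0.28) and DESeq2 (−0.29). At 12 h it did not pass in diploids with library totals (−0.23), the compared libraries alone (−0.35) or limma (−0.21 with either pseudocount), nor in autotetraploids with upper quartile scaling (−0.23), library totals (−0.13), no filter (−0.27), the compared libraries alone (−0.28) or limma (−0.11 with either). Its adjusted p for any difference among groups was 0.064 with upper quartile scaling, 0.24 with library totals, 0.056 with no filter and 0.33 with limma, and for the 6 drought comparisons at once 0.18 with library totals and 0.27 with limma. Library totals moved log2 folds at 12 h by 0.13 in diploids and 0.15 in autotetraploids; the cause of the other changes was not tested.

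Steps around 12 h moved with the same settings. From 6 h to 12 h EF1-alpha was 0.026 in diploids with library totals, and in autotetraploids 0.077 with library totals and 0.080 with limma under both pseudocounts, where TUA was 0.14 with limma. From 12 h to 48 h TUA was −0.096 with library totals and −0.086 with limma in diploids, and in autotetraploids −0.45 with each, where it then passed, and EF1-alpha was −0.043 with library totals and −0.040 with limma.

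Leaving out 1 library gave EF1-alpha log2 fold changes of −0.34 to −0.14 at 6 h and −0.41 to −0.21 at 12 h in diploids and −0.39 to −0.17 at 12 h in autotetraploids, with joint adjusted p of 0.012 to 0.089 for all groups and 0.0074 to 0.063 for drought. GAPDH at 48 h in diploids ran from −0.072 to 0.059 and TUA there from −0.65 to −0.45. The step from 6 h to 12 h in autotetraploids ran from −0.37 to 0.028 for ACT1 and −0.16 to 0.052 for EF1-alpha. Ploidy differences ran from −0.10 to 0.097 for EF1-alpha in controls, −0.061 to 0.15 for EF1-alpha at 12 h and −0.34 to 0.19 for ACT1 at 6 h, and the ACT1 interaction at 6 h from −0.24 to 0.29.

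Log2 ratios, each left-out library in turn: for GAPDH over TUA −0.39 to −0.26 at 12 h and −0.0046 to 0.061 between ploidies, for GAPDH over EF1-alpha 0.11 to 0.20 at 48 h and −0.015 to 0.047 between ploidies, for TUA over ACT1 −0.022 to 0.079 between ploidies, for TUA over EF1-alpha −0.49 to −0.33 at 6 h, −0.47 to −0.31 at 12 h and −0.060 to 0.022 between ploidies, and for ACT1 over EF1-alpha 0.31 to 0.52 at 12 h, 0.041 to 0.15 at 48 h and −0.10 to 0.017 between ploidies.

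The count of called genes depended most on settings at 48 h. In diploids it was 520, against 25 in a fit of the compared libraries alone, 1835 with DESeq2 and 36 to 849 without 1 library. In autotetraploids it was 3490, against 881, 5006 and 1773 to 3958. Log2 folds of ACT1 had an SE of 0.18, against 0.07 for GAPDH, which limits what 3 libraries a group can detect for ACT1. Alternatives for the gene family list were not run, since that list was not analysed here.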
